A study of Mus musculus with 4 samples.

Results

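The regions described here are 514 stretches of open chromatin outside protein-coding genes, called intergenic below. They were called at a strict threshold in intestinal organoids that had received no BMP2 and were not called at all after 72 h of BMP2. They came from ATAC-seq, in which the Tn5 transposase cuts open chromatin and the released fragments are sequenced. The regions were selected on the peak calls themselves. A region was chosen if its 0 h peak passed a p-value threshold of 1e-10 (a strict peak), if no 72 h peak of the lenient 1e-05 list shared a base with it, and if its midpoint lay on chromosomes 1 to 19 or X, outside every protein-coding gene body and over 1 kb from the nearest gene end. They are 514 of the 19910 strict 0 h peaks, of which 6.4% (1275) were free of 72 h overlap in any place, and 513 of them are also in the authors' deposited list of regions enriched at 0 h. Because these peak lists chose the regions, their presence at 0 h and absence at 72 h is a description and not a finding.

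The organoids derived from crypts of the proximal small intestine (jejunum), taken from the C57BL/6J strain, and each library used 30000 cells. The 72 h organoids had CHIR99021 (a GSK3 inhibitor that turns on Wnt signalling), valproic acid (an inhibitor of histone deacetylases) and Noggin (a BMP antagonist) withdrawn for 72 h and received 100 ng/mL BMP2. The 0 h organoids stayed in CVENR medium, which holds CHIR99021, valproic acid, EGF, Noggin and R-spondin. EGF and R-spondin were common to both, so BMP2 and the loss of the other agents cannot be told apart. Each time point is 1 library, so nothing below has a replicate check, and no p-value is given. Intervals are exact and cover counting error only, with neighbouring regions treated as independent. The lists hold positions without heights or read counts, so depth is unknown and a missing peak says only that none was called. Fewer cells of a type and less open chromatin per cell cannot be told apart in such bulk libraries.

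Intergenic open chromatin holds enhancers, which are bound by sequence-specific factors and act on genes at a distance, as well as the starts of non-coding RNA genes and boundary elements. In the intestinal crypt, Wnt and Notch signals keep stem and progenitor cells dividing, and BMP signals, strongest toward the villus, oppose that state. Distal open sites generally vary more between cell types than gene starts do.

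Among all strict 0 h peaks in the same intergenic space, 11.8% (514 of 4344) were 0 h-only, and the other 3830 were overlapped by a 72 h peak and are called kept regions below. In the opposite direction, 30.8% of the strict 72 h intergenic peaks (2065 of 6715) had no 0 h peak. On chromosomes 1 to 19 and X, strict 0 h peaks in or within 1 kb of genes were 0 h-only in 4.87% (754 of 15476). The regions closest to the limits of the rule were these. The nearest to a gene end were at Fnbp1l, Lipg, Arc, Samd5 and 1700122O11Rik, at 1.10, 1.15, 1.18, 1.25 and 1.37 kb, while 0 h-only peaks at Fgf21, Afap1l1, Efnb1, Ebf1 and Trib1 fell just outside it, at 0.98, 0.971, 0.953, 0.912 and 0.898 kb. At the overlap limit, gaps to a 72 h peak of 2, 61, 62, 94 and 99 bp (near Hjv, Irf1, Snx6, Mpzl1 and Slc4a8) kept a region in, and shared stretches of 3, 8, 8, 9 and 11 bp kept a region out.

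Of the 514 regions, 15 overlapped the 300 base window around an annotated start of a long non-coding RNA (lncRNA), which runs from 250 bases before the start to 50 after, and 10 held such a window whole. The lncRNAs themselves are little known, and no role is given for them here. Of the 11 whole windows, 7 are printed, chosen after their letters were seen. AU020206, Gm33265, Gm34099, Gm38424 (the first of its 2 overlapping windows) and Gm41429 are shown because each holds 2 different words of a set of 14 short factor-binding words, E130018N17Rik because it holds the SMAD word, and Gm13001 because it has the most CpG dinucleotides (17). Capitals mark the matched words and the sequences are from RefSeq, build GRCm38.p6, each written 5′ to 3′ on the gene's strand.
AU020206 (chr7:75782071-75782370, minus strand): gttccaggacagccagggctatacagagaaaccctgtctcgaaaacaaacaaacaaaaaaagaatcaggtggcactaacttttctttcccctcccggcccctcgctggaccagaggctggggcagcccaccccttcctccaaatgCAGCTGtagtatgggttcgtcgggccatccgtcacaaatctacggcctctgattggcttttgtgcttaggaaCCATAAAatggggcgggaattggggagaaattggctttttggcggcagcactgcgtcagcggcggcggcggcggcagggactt
E130018N17Rik (chr2:168154464-168154763, minus strand): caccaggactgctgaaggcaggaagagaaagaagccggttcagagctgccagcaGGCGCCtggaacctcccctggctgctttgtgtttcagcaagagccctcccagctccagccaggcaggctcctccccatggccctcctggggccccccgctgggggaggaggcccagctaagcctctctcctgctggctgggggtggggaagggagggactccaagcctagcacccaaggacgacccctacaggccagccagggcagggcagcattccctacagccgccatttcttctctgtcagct
Gm13001 (chr4:137118109-137118408, minus strand): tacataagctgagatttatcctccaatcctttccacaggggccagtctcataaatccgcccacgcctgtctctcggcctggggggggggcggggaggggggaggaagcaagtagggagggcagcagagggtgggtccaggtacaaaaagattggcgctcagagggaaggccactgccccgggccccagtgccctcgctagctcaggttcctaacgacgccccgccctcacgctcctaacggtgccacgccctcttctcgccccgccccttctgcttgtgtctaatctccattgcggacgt
Gm33265 (chr3:101667252-101667551, minus strand): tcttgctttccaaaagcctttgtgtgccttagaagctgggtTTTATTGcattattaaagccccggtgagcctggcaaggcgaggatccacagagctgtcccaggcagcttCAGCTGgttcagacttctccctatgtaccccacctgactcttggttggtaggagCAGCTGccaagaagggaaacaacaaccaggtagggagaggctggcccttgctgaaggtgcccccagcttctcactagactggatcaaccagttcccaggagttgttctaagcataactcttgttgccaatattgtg
Gm34099 (chr8:57410180-57410479, plus strand): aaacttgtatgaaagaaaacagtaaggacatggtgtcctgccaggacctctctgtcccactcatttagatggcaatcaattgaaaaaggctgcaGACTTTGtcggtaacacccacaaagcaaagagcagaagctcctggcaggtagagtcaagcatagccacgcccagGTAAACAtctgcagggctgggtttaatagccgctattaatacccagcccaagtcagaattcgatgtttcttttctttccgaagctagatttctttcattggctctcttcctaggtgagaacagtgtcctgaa
Gm38424 (chr5:31596693-31596992, plus strand): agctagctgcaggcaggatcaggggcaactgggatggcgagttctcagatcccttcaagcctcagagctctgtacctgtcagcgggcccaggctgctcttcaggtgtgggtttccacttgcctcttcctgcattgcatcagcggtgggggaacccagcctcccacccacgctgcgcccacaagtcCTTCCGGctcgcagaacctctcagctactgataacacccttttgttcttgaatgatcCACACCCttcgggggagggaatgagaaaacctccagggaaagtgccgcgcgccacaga
Gm41429 (chr16:18696474-18696773, plus strand): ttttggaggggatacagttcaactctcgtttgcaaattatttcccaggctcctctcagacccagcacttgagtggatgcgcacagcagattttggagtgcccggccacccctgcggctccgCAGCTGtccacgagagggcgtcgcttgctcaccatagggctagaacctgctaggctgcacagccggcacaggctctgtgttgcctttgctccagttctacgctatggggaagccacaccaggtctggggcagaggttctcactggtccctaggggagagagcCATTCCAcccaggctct

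The words searched, on both strands, were CTTTGAT for TCF/LEF, TGANTCA for AP-1, AGATAA for GATA factors, CAAAGTC for HNF4, TTTATNG for CDX, GGGTGTG for KLF, AGGGGGC for CTCF, GGCGCC for SMAD, TGTTTAC for FOXA, ACAATGG for SOX, CAGCTG for E-box proteins, CCGGAAG for ETS, CATTCCA for TEAD and AACCGGT for GRHL. CAGCTG and GGCGCC read the same on both strands. In AU020206 the marked words are those of E-box proteins and CDX, in Gm33265 CDX and 2 copies of the E-box, in Gm34099 HNF4 and FOXA, in Gm38424 ETS and KLF, and in Gm41429 E-box and TEAD. A match is only a description of the letters.

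Across the 11 windows in the 10 regions (Gm38424 has 2 overlapping ones), the E-box word occurred in 4, which is 36.4% (95% interval 10.9 to 69.2), against 12.9% of 178 windows in kept regions, 21.7% of 23 in 72 h-only regions and 16.3% of all 32817 start windows. The CDX word occurred in 3 of the 11 (27.3%, 6.02 to 61.0), against 12.4% in kept regions, 13.0% in 72 h-only regions and 10.9% of all start windows. With 11 windows, these intervals span every compared share. The TCF/LEF word was in none of the 11, which allows up to 28.5%, and it was in 5.62% of windows in kept regions and 3.73% of all windows. KLF and ETS words were found in 2 of the 11 each, both in the overlapping Gm38424 windows, and occur in 7.95% and 8.86% of all windows. HNF4, FOXA, TEAD and SMAD words had 1 match each, against 4.44%, 3.65%, 4.30% and 11.9% of all windows. AP-1, GATA, CTCF, SOX and GRHL words were not in these 11 windows and occur in 7.81%, 11.2%, 10.6%, 3.67% and 1.01% of all windows. The 11 windows had a median of 5 CpG dinucleotides (2 to 17), against 13 (1 to 49) in kept and 3 (0 to 18) in 72 h-only regions. The set of all windows also holds starts of protein-coding genes. Among the 11587 lncRNA start windows alone, the median was 4 CpG dinucleotides. There the E-box, CDX, KLF and ETS words occurred in 17.7%, 13.4%, 7.83% and 3.89%. HNF4, FOXA, TEAD and SMAD words occurred in 5.00%, 4.83%, 5.19% and 5.49% of them.

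Starts of lncRNA genes were less frequent in the 0 h-only regions than in the kept ones. Counting partial overlap too, 2.92% of the 0 h-only regions (15 of 514, 1.64 to 4.77) overlapped a lncRNA start window, against 6.42% of kept regions (246 of 3830, 5.67 to 7.25), an odds ratio of 0.438 (0.239 to 0.745). The share in 72 h-only regions was 1.89% (39 of 2065, 1.35 to 2.57), and the odds ratio of 1.56 against it had an interval from 0.793 to 2.92. Bodies of lncRNA genes held the midpoint of 23.0% of the 0 h-only regions (118, 19.4 to 26.8), 22.1% of kept regions and 16.8% of 72 h-only regions, with odds ratios of 1.05 (0.837 to 1.31) and 1.48 (1.16 to 1.88). The 0 h-only regions thus lay in lncRNA bodies about as often as kept regions did, and more often than 72 h-only regions did.

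Genes of small structural RNAs were under the 0 h-only regions and almost absent from the 72 h-only ones. Small nuclear RNAs (snRNAs) form the spliceosome, and transfer RNAs (tRNAs) carry amino acids to the ribosome. Of the 0 h-only regions, 8 overlapped an snRNA gene (1.56%, 0.674 to 3.04) and 6 a tRNA gene (1.17%, 0.430 to 2.52). Among kept regions 27 (0.705%, 0.465 to 1.02) and 51 (1.33%, 0.993 to 1.75) did. Among the 2065 regions found at 72 h only, 0 overlapped an snRNA gene, which allows up to 0.178%, and 1 a tRNA gene (0.0484%, 0.00123 to 0.270). With both kinds counted together, the odds ratio was 57.7 (8.74 to 2445) against 72 h-only regions and 1.35 (0.698 to 2.42) against kept regions. The contrast was noticed in these data and then counted.

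The snRNA genes were 6, and they included Rnu1b2 and Rnu1b6, which encode U1 RNA. Rnu1b2 lay under chr3:96373921-96374521, 9.39 kb from the nearest 72 h peak. Rnu1b6 lay under a pair of overlapping regions, chr3:96459887-96460487 and chr3:96460110-96460710, which were 383 and 606 bp from a 72 h peak. The annotated snRNA genes Gm26316 (under a further overlapping pair on chromosome 11) and Gm22973 (chromosome 12) were 21.5 and 20.2 kb or more from any 72 h peak. Gm22042, on chromosome 4, was 364 kb from one and 562 kb from a protein-coding gene. Gm22317, by contrast, had a 72 h peak only 62 bp away.

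The 6 tRNA genes were n-TPagg2 and n-TPtgg7 (proline), n-TWcca7 (tryptophan), n-TSaga5 (serine), n-TNgtt12 (asparagine) and n-TKctt16 (lysine). At n-TPagg2, n-TWcca7, n-TPtgg7 and n-TKctt16 a 72 h peak lay within 1 kb, at 94, 119, 241 and 2 bp. At n-TSaga5 and n-TNgtt12 the nearest one was 4.71 and 2.31 kb away. When a 72 h peak within 1 kb was enough to remove a region, 7 of the 14 regions were left, 5 of them over snRNA and 2 over tRNA genes. Over the whole of chromosomes 1 to 19 and X, 28.4% of the 408 tRNA genes were covered by a lenient peak at 72 h (116, 24.1 to 33.1) and 38.7% at 0 h (158, 34.0 to 43.6). Strict peaks covered 70 of them at 72 h and 75 at 0 h. For the 1003 snRNA genes, lenient peaks covered 42 at 72 h and 54 at 0 h, and strict peaks 29 at 72 h and 46 at 0 h. Both classes have near-identical copies, so reads may be shared among them, and no source used here says how the authors placed such reads.

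**Figure D1:**
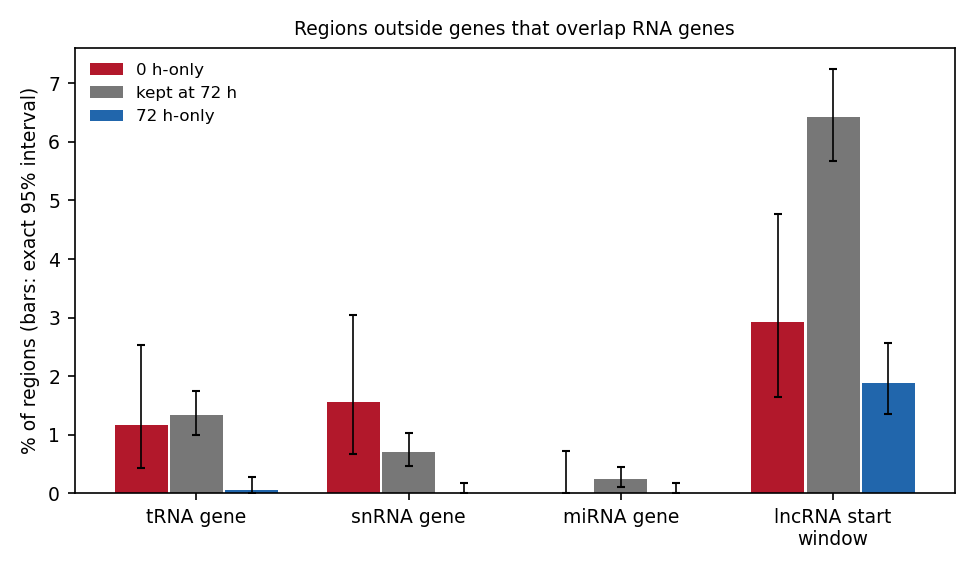
Share of regions outside genes (percent, bars start at 0) that overlap a tRNA gene, an snRNA gene, a miRNA gene or a lncRNA start window, for the 514 regions at 0 h only (red), the 3830 kept at 72 h (grey) and the 2065 at 72 h only (blue), with exact 95% intervals as error bars. For tRNA and snRNA genes, 72 h-only regions sit at or near 0, and for lncRNA starts the kept regions are highest at 6.42%.

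No 0 h-only region overlapped a microRNA (miRNA) gene, which allows up to 0.715%, against 9 kept regions (0.235%) and 0 at 72 h only. These counts are too small to tell the sets apart. Of the 0 h-only regions, 7 (1.36%, 0.549 to 2.79) had a miRNA gene within 10 kb, against 2.04% of kept and 0.484% of 72 h-only regions. The nearest were Mir3960, Mir6973b and Mir130a at 2.12, 2.19 and 2.38 kb. Mir1953, Mir34a (a target of p53), Mir9-2 (known from neural tissue) and Mir7001 were 4.59, 6.36, 7.36 and 7.81 kb away. These were named after their values were seen.

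The 0 h-only regions lay farther from genes and from other peaks than the kept regions did. Their median distance to the nearest protein-coding gene end was 24.7 kb (quartiles 8.73 and 62), against 18.5 kb for kept and 20.7 kb for 72 h-only regions. Over 50 kb from any gene end lay 30.4% (156, 26.4 to 34.5) of the 0 h-only regions, 24.8% (23.4 to 26.2) of the kept regions and 29.1% (27.1 to 31.1) of the 72 h-only regions. The odds ratio was 1.32 (1.07 to 1.62) against kept regions and 1.06 (0.856 to 1.32) against 72 h-only regions. Within 1 to 5 kb of a gene end were 14.0% (72), 17.8% and 16.0% in the same order. When the strict 72 h list was used to decide overlap, which raises the number of 0 h-only regions to 1248, 25% of them were over 50 kb away.

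Of the regions within 50 kb of a gene whose strand was known, 58.3% (165 of 283, 52.3 to 64.1) lay upstream of it, against 54.5% of kept and 60.0% of 72 h-only regions. The odds ratios were 1.17 (0.903 to 1.52) and 0.934 (0.711 to 1.23), so no difference in side was detectable. The regions were spread over all chromosomes in use, from 38 on chromosome 11 and 37 on chromosome 4 to 14 on chromosome 19 and 4 on X. Chromosome X held 0.778% (0.212 to 1.98) of them, against 1.44% of kept and 1.65% of 72 h-only regions.

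The 0 h-only regions were also more isolated within their own library. A second 0 h peak of the lenient list was within 10 kb of 51.9% (267, 47.5 to 56.3), against 59.9% (58.4 to 61.5) of kept regions, an odds ratio of 0.722 (0.598 to 0.873). For 72 h-only regions, 62.2% had a second 72 h peak that close, but the 72 h library has more peaks (41343 in the lenient list, against 35857 at 0 h), and its part in this was not tested. An overlapping second summit was present at 7.78% (40, 5.62 to 10.4) of the 0 h-only regions and at 14.7% (13.6 to 15.9) of kept regions. No other 0 h peak lay within 50 kb of 16.0% (82) of the 0 h-only regions, against 11.3% for kept regions, an odds ratio of 1.49 (1.14 to 1.94).

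**Figure D2:**
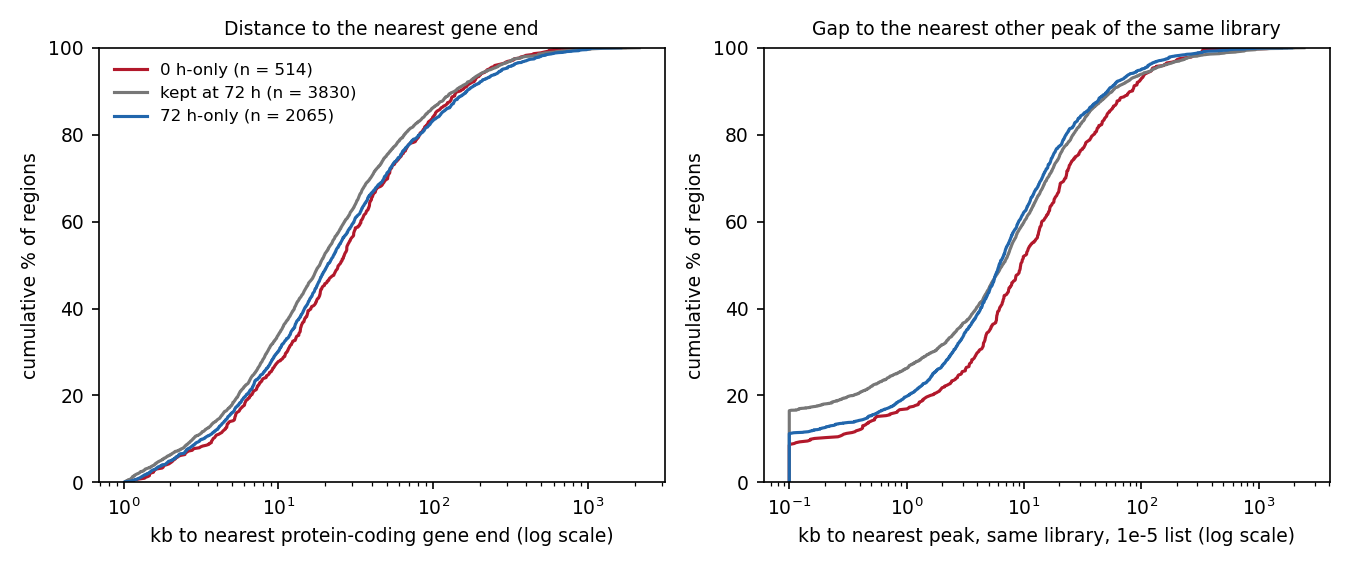
Cumulative percent of regions outside genes by distance to the nearest protein-coding gene end (left, kb, log scale) and by gap to the nearest other lenient peak of the same library (right, kb, log scale, gaps under 0.1 kb and overlaps drawn at 0.1), for regions at 0 h only (red), kept at 72 h (grey) and at 72 h only (blue). The red curve runs right of the grey one in both panels over most of the range, with medians of 24.7 against 18.5 kb on the left and 9.38 against 6.54 kb on the right.

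Where a 0 h-only region did have a 0 h neighbour, that neighbour was more often 0 h-only than the neighbour of a kept region was. Beyond 1 kb, though, the share was near that of all lenient 0 h peaks outside genes. Of the 267 regions with a neighbour within 10 kb, the nearest one was itself free of 72 h overlap in 41.2% (110, 35.2 to 47.4). For kept regions the share was 17.3% (398 of 2296, 15.8 to 18.9), an odds ratio of 3.34 (2.53 to 4.39). The background was 20.7% over lenient 0 h peaks in all places and 30.7% (3139 of 10219) over those outside genes. Neighbours could lie in either place. Neighbours within 1 kb can be summits of 1 broad site, which the rule links. With neighbours at 1 to 10 kb only, the shares were 31.0% (70 of 226, 25 to 37.4) and 22.4% (414 of 1846, 20.5 to 24.4), an odds ratio of 1.55 (1.13 to 2.12). The 31.0% was near the background outside genes (30.7%) and above that in all places (20.7%), while the 22.4% of kept regions was below the former. For 72 h-only regions the share at 1 to 10 kb was 43.3% (40.4 to 46.2), beside a background of 30.6% over lenient 72 h peaks in all places. The background outside genes was not counted for 72 h, so this comparison is not like the one made for 0 h.

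Peaks of the 72 h library were often near. A 72 h peak lay within 1 kb of 10.3% (53, 7.82 to 13.3) of the 0 h-only regions, within 10 kb of 44.9% (231, 40.6 to 49.4) and within 50 kb of 81.1% (417), and the median gap was 11.9 kb. The 72 h-only regions stood at nearly the same distances from 0 h peaks, with 7.36%, 45.6% and 81.3% within those limits and a median of 11.6 kb. The odds ratio at 10 kb was 0.973 (0.797 to 1.19), and at 1 kb it was 1.45 (1.02 to 2.03). A strict 72 h-only region outside genes was within 10 kb of 5.06% (26, 3.33 to 7.32) of the 0 h-only regions, fewer than the 8.88% (340, 8.0 to 9.82) of kept regions, with an odds ratio of 0.547 (0.348 to 0.826). Another 0 h-only region outside genes was within 10 kb of 5.25% (27) and 3.03% in the same order, with an odds ratio of 1.77 (1.11 to 2.75). Overlapping 0 h-only regions, which can be summits of the same broad site, count toward the 5.25%. The share was not recounted without them, so it does not show that separate sites lie together. Likewise, every kept region overlaps a 72 h peak by the rule, so a 72 h-only region near it can be a summit of the same broad site. The 5.06% and 8.88% were not recounted without such pairs, so they do not show that separate sites lie apart.

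**Figure D3:**
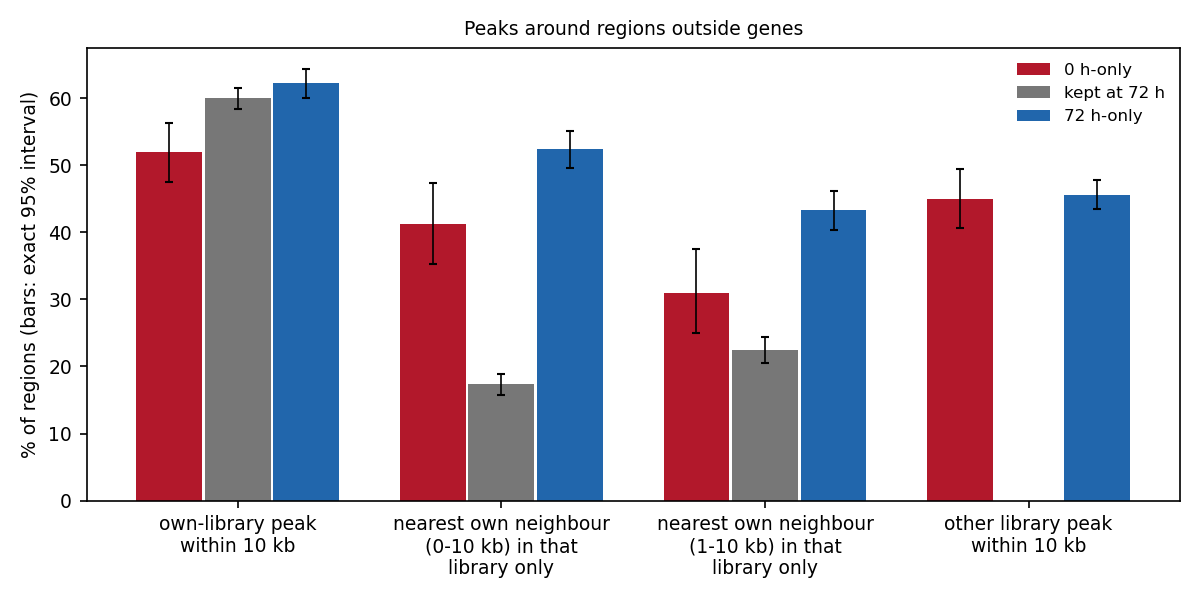
Percent of regions outside genes (bars start at 0, exact 95% intervals as error bars) with a second peak of their own library within 10 kb, whose nearest own neighbour within 10 kb or at 1 to 10 kb was called in that library only, and with a peak of the other library within 10 kb. Red bars are 0 h-only, grey kept and blue 72 h-only regions, and the last group has no grey bar because kept regions overlap a 72 h peak by definition. In the neighbour groups red exceeds grey, at 41.2% against 17.3% and 31.0% against 22.4%. The 31.0% is near the background of 30.7% over all lenient 0 h peaks outside genes.

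The most remote regions differed in how near other peaks were. The farthest from any protein-coding gene was chr4:23636120-23636720, 860 kb from Mms22l, with a 72 h peak 14.4 kb and another 0 h peak 48.3 kb away. Those on chromosomes 16, 15, 4 and 18 at 61369833 to 61370433, 19622149 to 19622749, 51812265 to 51812865 and 55549557 to 55550157 were 759, 606, 562 and 557 kb from a gene, with Epha6, Cdh10, Cylc2 and Zfp608 nearest. The region near Cdh10 was also the farthest from any 72 h peak, at 1492 kb, and its nearest 0 h neighbour was equally far off. Next came a region 10.7 kb from Klhl4 on X, at 1165 kb, and one 1.47 kb from Kcnh8 on chromosome 17, at 551 kb, whose midpoint was in the lncRNA gene Gm27217 and which had another 0 h peak 0.409 kb away. The region near Epha6 and one 108 kb from Tbx18 on chromosome 9 were 421 and 402 kb from a 72 h peak. In all, 11.9% (61, 9.20 to 15.0) had no other peak of either library within 50 kb, against 9.01% (7.81 to 10.3) of 72 h-only regions.

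By the nearest gene end within 50 kb, 358 of the 514 regions belonged to 340 protein-coding genes. That is 2.23% of the 15255 genes with any peak, and the corresponding figures were 14.4% for kept and 8.06% for 72 h-only regions. Regions rarely gathered at 1 gene. After merging, the 514 regions formed 508 sites, 327 genes had 1 site and 13 had 2. Only 5 sites joined more than 1 region, and the widest was a run of 3 over 1277 bp near Tamm41, chr6:114987895-114989171.

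The genes with 2 sites had mixed functions. At Tbc1d1, a Rab GTPase-activating protein of glucose transporter traffic, both lay downstream, 38.0 and 40.0 kb from the gene, and the gene had 10 lenient peaks at 72 h and 14 at 0 h. At Myh9, which encodes the heavy chain of non-muscle myosin IIA, they lay 1.56 and 7.58 kb upstream, with 10 peaks at 72 h and 11 at 0 h. Cd9, a tetraspanin, had them 26.3 and 37.7 kb downstream, with 3 peaks at 72 h and 6 at 0 h. Plpp3, a lipid phosphate phosphatase, had 1 on either side, with 11 peaks at 72 h and 7 at 0 h. The 0 h counts of these genes include both regions, which the rule chose for being at 0 h only.

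Nefl, the light neurofilament chain, had 1 peak at 72 h and 3 at 0 h. Hjv, hemojuvelin, a BMP co-receptor of iron control, had 1 peak at 72 h and 6 at 0 h, and both of its regions are those over the tRNA genes n-TNgtt12 and n-TKctt16, 27.6 and 25.3 kb from Hjv itself. Ptgr2, a prostaglandin reductase, had 3 peaks at 72 h and 4 at 0 h. Tmc1, a channel protein of inner ear hair cells, had 3 at 72 h and 4 at 0 h. Thumpd3 had 8 in each library. Fam91a1 had 7 at 72 h and 6 at 0 h, 2410004B18Rik had 2 at 72 h and 5 at 0 h, and 1700042G07Rik had 0 at 72 h and 2 at 0 h, both of them the regions described here.

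Intestinal transcription factor genes had a 0 h-only intergenic region at 5 of 32 members with a peak (15.6%), against 2.23% of all genes with a peak. They included Foxa1 (a pioneer factor), Pparg (a nuclear receptor), Sox4 (a factor of progenitor cells) and Vdr (the vitamin D receptor). The list also had kept regions at 20 of the 32 (62.5%, background 14.4%) and 72 h-only regions at 7 (21.9%, background 8.06%), and it is rich in peaks, with 193 lenient peaks at 72 h and 172 at 0 h. Vdr's region was chr15:97932266-97932866, 24.3 kb upstream, and the gene had 6 peaks at 72 h and 9 at 0 h. Sox4's region was 38.7 kb upstream on chromosome 13, at 28992069 to 28992669, overlapped by a second 0 h summit and 32.0 kb from a 72 h peak. The Foxa1 region was 35.1 kb downstream, with 3 peaks at 72 h and 5 at 0 h at this gene. Pparg's lay 11.0 kb upstream, with 10 peaks at 72 h and 8 at 0 h. At Foxa1 and Vdr the 0 h library thus had the larger number of peaks, to which the region itself adds, and at Pparg the 72 h library did.

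In the crypt and signalling lists, 0 to 2 genes each had a region within 50 kb, counts to be set beside the 2.23% of all genes with a peak. Regions farther off are not counted, and some of them had a listed gene as the nearest one. The lists do not hold every gene of a pathway. Some genes outside them, such as Hjv and further Wnt genes, also had a region. Of 27 crypt base stem cell genes with a peak, 2 (7.41%) had a region, Vdr and Tnfrsf19. Tnfrsf19 encodes a receptor of the TNF family that marks crypt stem cells, and its region lay 10.3 kb upstream at chr14:61056897-61057497, with 2 peaks at 72 h and 4 at 0 h for the gene. Of 32 Wnt genes, 1 had a region (3.12%). It was Tiam1, an activator of Rac that responds to Wnt, at 36.0 kb upstream, with 9 peaks in each library. Of 21 Notch genes, 1 did (4.76%). It was Hes1, the repressor that Notch induces, at chr16:30053140-30053740, 11.9 kb from the gene, and other 0 h and 72 h peaks stood 1.54 and 1.68 kb from that region. Of 21 EGF and ErbB genes, 1 did (4.76%), Egfr itself, 14.7 kb upstream, with 11 peaks at 72 h and 10 at 0 h. Of 18 Eph receptor and ephrin genes, 0 did. For kept regions the shares of the crypt, Wnt, Notch, EGF and Eph lists were 37.0%, 28.1%, 33.3%, 47.6% and 55.6% (background 14.4%). For 72 h-only regions they were 7.41%, 12.5%, 14.3%, 38.1% and 16.7% (background 8.06%).

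Among 30 BMP-SMAD genes with a peak, 2 (6.67%, background 2.23%) had a 0 h-only intergenic region, 13 (43.3%, background 14.4%) a kept one and 7 (23.3%, background 8.06%) a 72 h-only one. Msx2, a homeobox gene known as a BMP target, had its region 19.1 kb downstream at chr13:53447497-53448097, and it had 0 peaks at 72 h and 5 at 0 h, 2 of those strict. Pmepa1, an inhibitor of TGF-beta signalling, had one 30.6 kb outside the gene and also 1 72 h-only region outside the gene, with 6 peaks at 72 h and 8 at 0 h. The list as a whole had 131 lenient peaks at 72 h and 113 at 0 h. Of 24 proliferation genes, 2 (8.33%, background 2.23%) had a region, 6 (25%, background 14.4%) a kept one and 1 (4.17%, background 8.06%) a 72 h-only one. Ccne1, which encodes cyclin E1 of the S-phase entry, had it 20.6 kb downstream, with 3 peaks at 72 h and 6 at 0 h. Aurkb, a mitotic kinase, had it 3.79 kb from the gene, and that region is the one over the tRNA gene n-TWcca7, 119 bp from a 72 h peak.

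None of 39 villus enterocyte genes with a peak had a 0 h-only intergenic region, where the background is 2.23%. A kept region was nearest to 6 of them (15.4%, background 14.4%) and a 72 h-only one to 20 (51.3%, background 8.06%). The list had 177 lenient peaks at 72 h and 81 at 0 h. Fetal-like and YAP target genes had none among 16. Of the cell type marker lists, goblet (13 genes with a peak), enteroendocrine (15), tuft (8), fibroblast and smooth muscle (10) and immune (4) had none. Paneth markers had 1 of 4, Itln1 (an intelectin lectin), with a region 9.64 kb upstream as its only peak in either library. Endothelial markers had 1 of 7, Vwf (von Willebrand factor), with a region 24.1 kb outside the gene and 4 peaks at 72 h and 5 at 0 h.

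**Figure D4:**
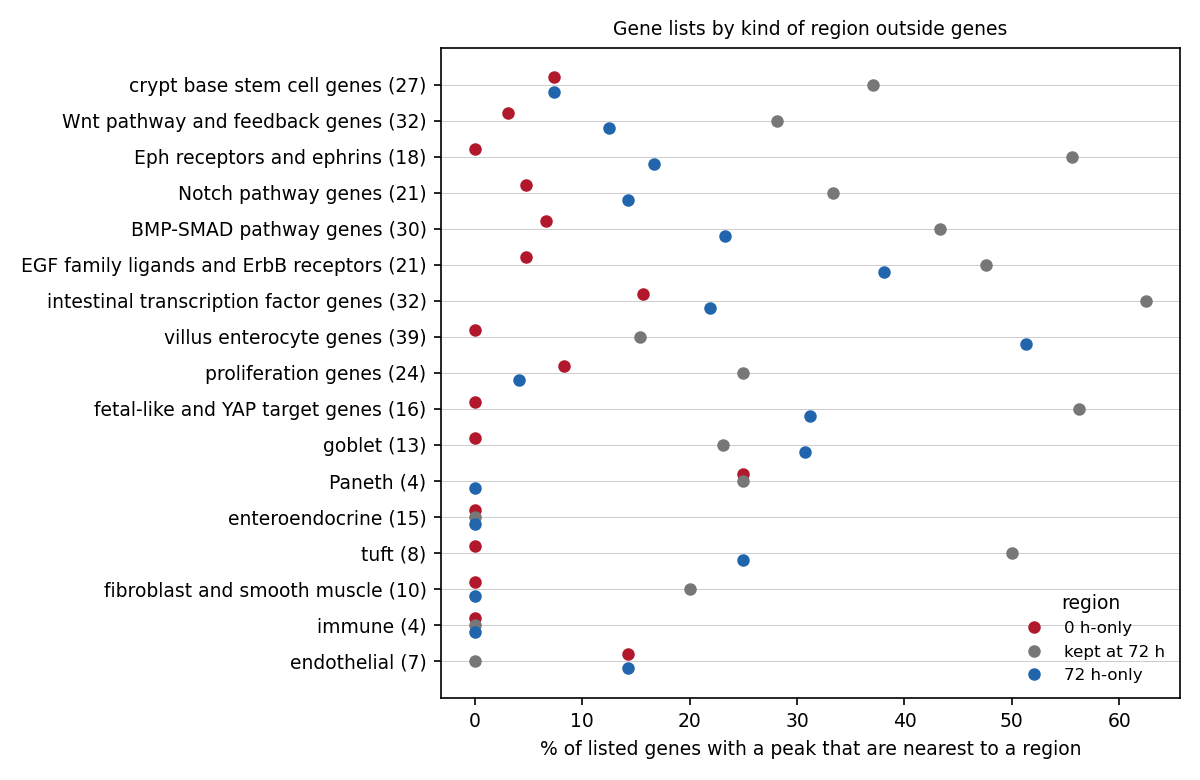
Percent of the listed genes with a peak (number in brackets) that were nearest to a 0 h-only (red), kept (grey) or 72 h-only (blue) region outside genes. The overall shares are 2.23%, 14.4% and 8.06%, so colours are to be read each against its own overall share. The highest red points among lists of over 10 genes are the intestinal transcription factors (15.6%) and the proliferation genes (8.33%).

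**Figure D5:**
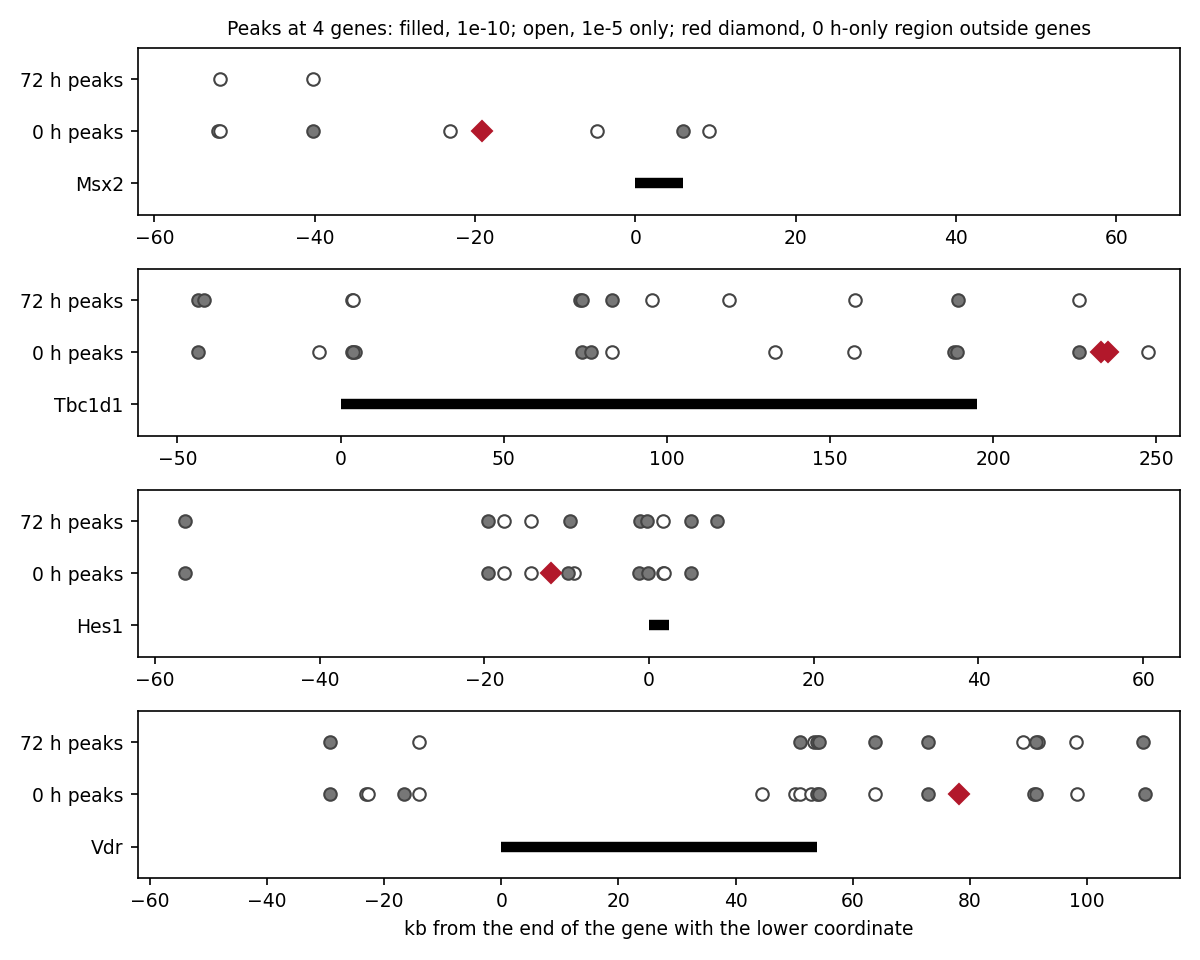
Peaks around Msx2, Tbc1d1, Hes1 and Vdr, chosen after their values were seen, by distance in kb from the gene end of lower coordinate, with the gene body as a black bar. Filled circles are strict peaks, open circles are peaks of the lenient list only and red diamonds are the 0 h-only regions outside genes. Msx2 has no 72 h peak assigned to it and 5 at 0 h, while at Hes1 and Vdr most other peaks are present in both rows.

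With the regions themselves left out, the genes nearest to them had more peaks at 72 h about as often as all genes did. Without the regions, these 340 genes had 1207 lenient peaks at 72 h and 1090 at 0 h, with a median of 2 in each library. At 72 h, 127 genes (37.4%) had more peaks than at 0 h, 109 (32.1%) the same number and 104 (30.6%) fewer. Among all 15255 genes with a peak these shares were 37.0%, 38.8% and 24.1%. Leaving the regions out lowers only the 0 h counts of the 340 genes, and nothing was removed for all genes. At 31 genes the regions were the only peaks in either library. Of the 340 genes, 108 (31.8%, 26.8 to 37.0) also had a kept region outside the gene and 52 (15.3%, 11.6 to 19.6) a 72 h-only one.

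The starts of these genes mostly kept their state. For 270 of the 340 genes an annotated start was at hand, and 151 (55.9%, 49.8 to 61.9) had a strict peak within 1 kb of a start in both libraries, 9 (3.33%, 1.54 to 6.23) at 72 h only, 15 (5.56%, 3.14 to 9.0) at 0 h only and 95 (35.2%, 29.5 to 41.2) in neither. Among all 12166 protein-coding genes with a peak and a start, 65.2% had one in both, 3.36% at 72 h only, 4.76% at 0 h only and 26.7% in neither. A start counted at 0 h only lacks a strict 72 h peak but may hold a lenient one, unlike the 0 h-only regions. Near 0 h-only regions, gene starts with a strict peak at 0 h only were thus about as frequent as among all genes. Starts without a strict peak in either library were more frequent. The share of starts without a strict peak was 30.5% for genes nearest to kept regions and 33.0% for those nearest to 72 h-only regions. Both lie within the interval for the 0 h-only regions, so the excess is not particular to them.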

How the data were processed

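ATAC-seq peak lists of 2 libraries, 72 h and 0 h, were used. Those of 24 h and 48 h were not used here. Per the submitters' processing notes, the tools were MACS2 2.2.7.1, Picard 2.18.27, Bowtie2 2.4.1, bedtools 2.26.0, cutadapt 1.9.1, deepTools 3.5.4 and SAMtools 1.3.1, with the mm10 build. Settings such as the shift for the Tn5 cut, duplicate removal and filters, which can move or drop peaks, are in no source used here. The authors deposited, per library, regions, nearly all of 601 bp, called at 1e-05 and 1e-10 and a list of enriched regions, with positions but no score or read count.

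Overlap and placement were computed with Python 3.11.15, numpy 2.4.6, pandas 2.3.3 and SciPy 1.17.1, and tested on simulated regions. Genes came from RefSeq GRCm38.p6, the assembly that mm10 names, and coordinates are 1-based. Strands and starts came from a RefSeq table holding 17492 of 21900 protein-coding and 9533 of 12731 lncRNA genes. No genome sequence was used, so sequence words were counted in start windows instead of in all regions. Shares have exact Clopper-Pearson 95% intervals and odds ratios exact conditional ones. Members and gene lists were chosen with earlier results of these data known. Named are listed genes nearest to a region, genes with 2 sites, the 5 most remote regions by each distance and the 5 on each side of each limit, and a few genes that this rule names are not reported here. Strict 0 h-only peaks on chromosome Y and unplaced scaffolds (7) were left out.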

Additional observations from a re-analysis of the deposited data

How the results depend on the processing

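Of the strict 0 h intergenic peaks, 11.8% were 0 h-only. The share was 30.7% with the lenient 0 h list and 28.7% with the strict 72 h list. It was 10.6% when a 72 h peak within 1 kb removed a region, and 13.1% when only a 72 h peak covering 50% did. With the strict 72 h list, 25% of the regions were over 50 kb from a gene and 77.3% had a 72 h peak within 10 kb. With a limit of 5 kb to a gene end, 35.3% were over 50 kb away, since nearer regions drop out. The share with a 72 h peak within 10 kb (44.9%) was 38.6% with the 1 kb gap, 50.4% with the 50% overlap and 81.1% within 50 kb. A second 0 h peak lay within 50 kb of 84%. The genes nearest to a region, 340, were 1833 with the lenient 0 h list, 848 with the strict 72 h list, 724 with every gene within 50 kb and 137 within 10 kb. The 14 regions over tRNA or snRNA genes were 45, 31 and 7 with the lenient 0 h list, the strict 72 h list and the 1 kb gap, alternatives chosen after seeing the data. The other alternatives, among them merged sites and the authors' enriched list, moved these values by less than their interval or 1.5 times. Sequence alternatives were not run for want of a genome. No paired analysis was possible because each time point is 1 library. Without read counts, depth limits every missing call.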
